A study of Mus musculus with 12 samples.

Results

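Jun, Gadd45b, Bcl2l11, Hspa1a and Hspa1b, 5 genes of the stress response and of apoptosis, carried 6 of the 11054 m6A peak regions listed for mouse embryonic stem cells with Mettl14 or Mettl3 knockdown and their scramble controls. They were 5 of 6097 listed gene IDs and were found by gene symbol, and their peaks were followed by coordinate through the 4 deposited tables. The genes were chosen on the measured changes of these tables, so the direction of their peaks is given as a description and no test was made on it. The cells were of the J1 line, grown on a feeder layer of irradiated fibroblasts, and every group carried a lentiviral shRNA construct and was selected with puromycin. There were 2 immunoprecipitation (IP) libraries from cells with an shRNA against Mettl14, 2 from cells with an shRNA against Mettl3 and 2 from cells with a scramble shRNA. No source used here says whether the 2 libraries of a group came from separate infections or cultures, so their spread may be technical.

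N6-methyladenosine (m6A) is a mark inside mRNA that is written by a complex of Mettl3, which holds the catalytic site, and Mettl14, which helps to bind the RNA. It sits on the adenosine of a short consensus, of which GGACT is a common form, and is found most often in long exons and around stop codons. In embryonic stem cells it is known for shortening the life of many transcripts. Transcripts of the 5 genes are known to be induced by stress or by growth factor signals. Jun is a subunit of the AP-1 transcription factor, Gadd45b an activator of stress kinases induced by DNA damage and cytokines, Bcl2l11 encodes the pro-apoptotic protein Bim, and Hspa1a and Hspa1b encode inducible Hsp70 chaperones.

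The libraries fall into 2 sets of 1 Mettl14 knockdown, 1 Mettl3 knockdown and 1 scramble library, and within a set both knockdown tables use the same scramble library. The knockdown libraries held 4367 to 5717 peaks and the scramble libraries 7886 (set 1) and 5438 (set 2). Knockdown peaks held 4 to 2151 tags, with medians of 55.0 to 72.0, and the total depth of the libraries is not known from the tables. In the authors' deposited tables, the median log2 change of all shared peaks was -0.06 (Mettl14, set 1), -0.59 (Mettl14, set 2), 0.22 (Mettl3, set 1) and -0.91 (Mettl3, set 2). Of 10 embryonic stem cell markers, Sox2, Klf4 and Sall4 had a scramble peak in both sets, and Pou5f1 and Nanog had none. Of 10 fibroblast markers, Pdgfrb and Twist1 had one in both sets and Col1a1 and Vim had none. A peak is not a level of expression. Without expression values the knockdown could not be checked, and fewer transcripts, fewer cells and a lower methylated share cannot be told apart.

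All 6 regions were lower in the knockdown libraries wherever the tables listed them, except for a peak at the 5' end of Jun that appeared with Mettl3 knockdown in set 2. The authors' fold enrichment, read as the peak caller's ratio of IP over control for a peak, is the level given here. Each peak's fold, score and false discovery rate (FDR) are the authors' own. A region was called lower where every peak it had in a table was lost (listed in scramble alone) or had a negative log2 change. That change is of the knockdown library's enrichment, multiplied by 1 constant of the authors per table, over scramble. By this rule 5 of the 5 regions listed in both Mettl14 tables were lower in both, where 49.9% of all regions were lower and 10.9% higher. With Mettl3 knockdown, 4 of the 5 regions in both of its tables were lower, where 41.0% of all regions were lower and 8.55% higher. At an FDR of at most 1% the Mettl3 count was 2, Hspa1b and Jun. Jun was then lower because its gained peak (FDR 7.43%) was left out. Gadd45b, the Bcl2l11 intron and Hspa1a no longer counted, since peaks of theirs had a higher FDR. In set 1 it was 5.66% for the scramble peak of Gadd45b and 7.22% for the Mettl3 knockdown peak of the Bcl2l11 intron. No region of the 5 genes was higher with either knockdown. Hspa1a and Hspa1b each count as 1 region here, although reads of their near-identical coding sequences may be split or shared between them. Of the regions listed in all 4 tables, 35.0% were lower in all 4 and 10.7% had only lost peaks in all 4. The calls follow the sign alone, and the smallest change counted as lower was -0.03. The authors' deposited tables give 22 log2 changes for these regions, all negative, from -3.10 to -0.03. They kept their sign without the scaling constants (-3.02 to -0.03) and with each table's median set to 0 (-3.23 to -0.11). Negative changes made up 54.6% (Mettl14, set 1), 84.8% (Mettl14, set 2), 35.2% (Mettl3, set 1) and 93.0% (Mettl3, set 2) of all shared peaks. The 22 are pairs of peaks, some peaks stand in more than 1 pair, and both tables of a set share the scramble library.

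Jun, Hspa1a and Hspa1b had a peak in all 6 libraries, and in these 3 regions every knockdown enrichment lay below every scramble enrichment. The share over all 2245 regions with a peak in all 6 libraries was 9.44%. The gap was widest for Hspa1b, with at most 8.73 in knockdown and at least 13.2 in scramble libraries. It was narrow for Jun, with at most 12.1 against at least 12.4, and for Hspa1a, with at most 10.6 against at least 10.7. For each knockdown alone, with 2 libraries against 2, an exact permutation test of a single value cannot give a p below 0.333. No test was made on the libraries of both knockdowns together.

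**Figure D1:**
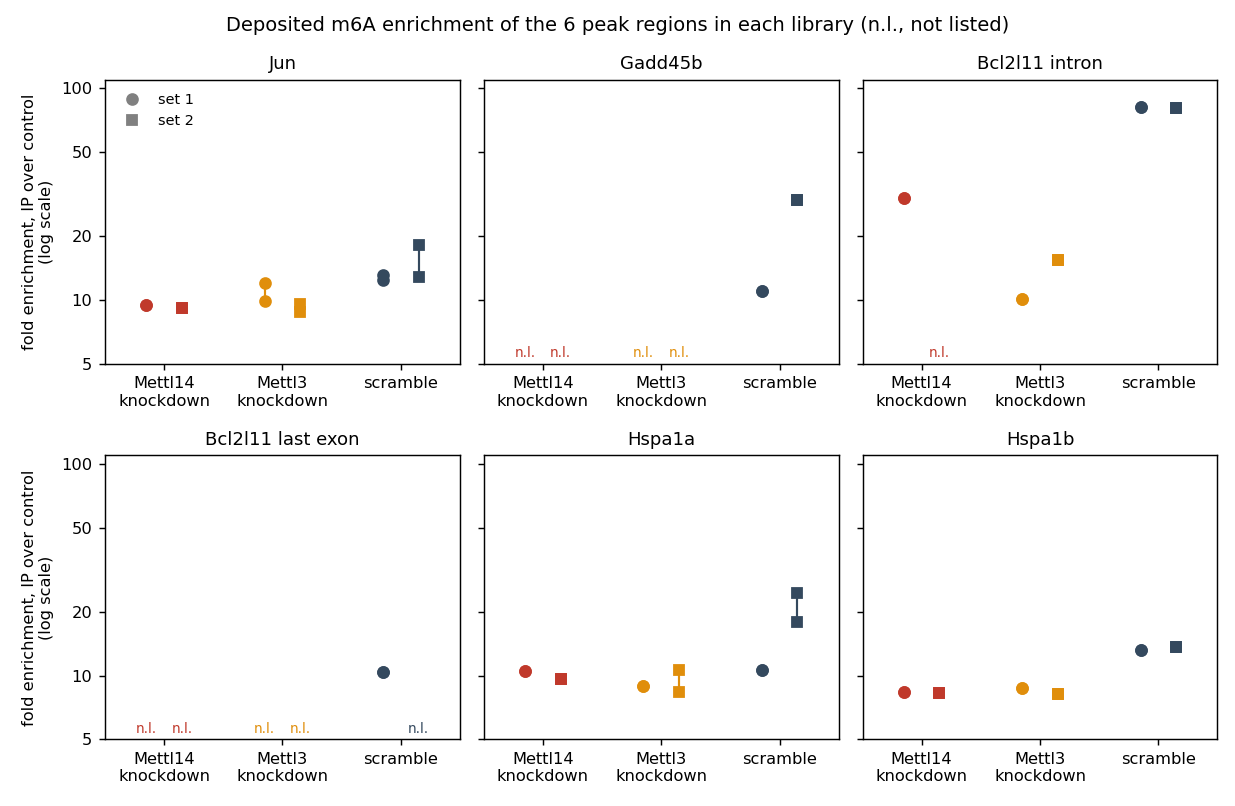
Deposited fold enrichment of IP over control (log scale) in each library for the 6 regions, with circles for set 1, squares for set 2, a line between the lowest and highest of several peaks, and n.l. where no peak was listed. Knockdown points lie below scramble points in each panel that holds both, from a narrow gap in Hspa1a (10.6 against 10.7) to a wide one in the Bcl2l11 intron (at most 30.3 against at least 80.6).

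Jun, which encodes the AP-1 subunit c-Jun, is a gene of 1 exon on the minus strand (Jun-201, 3189 nt, chr4, 95049034 to 95052222, build mm10). Its peaks covered the coding sequence and the flanks of both UTRs. Mettl14 knockdown libraries each held 1 peak, with a fold enrichment of 9.43 (600 tags) in set 1 and 9.14 (553 tags) in set 2. The Mettl3 knockdown library of set 1 held 2 peaks, at 12.1 (362 tags) over the 3' part and 9.85 (124 tags) over the 5' part. In set 2 the Mettl3 knockdown library held a peak of 9.62 (466 tags) over the gene body. The scramble libraries held 2 peaks each, at 12.4 (3' part) and 13.2 (5' part) in set 1 and at 18.3 (3' part) and 12.9 (5' part) in set 2. The set 2 scramble library stood above all others at the 3' part, and the Mettl3 knockdown of set 1 came closest to scramble.

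For Jun the authors' deposited tables give log2 changes after Mettl14 knockdown of -0.54 (3' part) and -0.63 (5' part) in set 1 and of -1.37 (3' part) and -0.87 (5' part) in set 2. After Mettl3 knockdown the changes were -0.03 (3' part) and -0.42 (5' part) in set 1 and -1.64 (3' part) and -1.14 (5' part) in set 2. The changes were larger in set 2, whose table medians were also lower. With the medians set to 0, the set 2 values of Jun ran from -0.77 to -0.23 and the set 1 values from -0.64 to -0.26. The Jun peaks of knockdown libraries were 89.1% to 294% as wide as the scramble peaks they were compared with, since 1 long knockdown peak spanned both scramble peaks in 3 of the 4 tables. In those tables the 1 value of the long peak, whose summit lay in the 3' part, was set against both scramble peaks. The change given there for the 5' part is thus not a measure of that part alone. How the caller's value depends on the width of a call is not stated in any source used here.

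Where knockdown libraries listed a summit over the 3' part of Jun, it lay 65 to 75 nt before the last coding base. The 5' UTR of Jun also held the gain. With Mettl3 knockdown in set 2 a further peak was listed (chr4, 95051764 to 95052261), with an enrichment of 8.76, 68 tags and an FDR of 7.43%, close to the 10% at which the lists end. Of its 498 nt, 459 lay in the 5' UTR and 39 beyond the annotated start. The other 3 knockdown libraries and both scramble libraries had no separate peak there, although the Mettl14 knockdown peak of set 1 reached into the same stretch, to position 95051806. This peak is why Jun was of both kinds, lower and new, in that table.

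The Jun region held 7 copies of GGACT, read on the sense strand, over 2501 nt of transcript. Of all windows of that length on the longest coding transcripts, 2.90% held as many. In each set the scramble peaks held 2 (3' part) and 1 (5' part), and each long knockdown peak held 3. The remaining copies lay in the stretch that the gained peak of 1 library alone covered, and the 2.90% includes them. Both sites in the 3' UTR are shown because they are the nearest to the 3' summits, at 196 to 206 nt for the closer one. The 5' UTR site is the nearest to the summit of the gained peak, at 10 nt, and 3 copies lay within the 101 nt around that summit. Of all windows of 101 nt, 9.88% held at least 1. The sequences are 30 nt of the GENCODE M21 transcript, written 5' to 3' in DNA letters with GGACT in capitals.
Jun 5' UTR site, chr4:95052109-95052138, minus strand, GRCm38: agacagacggacGGACTtggccaacccggt
Jun 3' UTR site nearer the stop codon, chr4:95050124-95050153, minus strand, GRCm38: ggtacacaagatGGACTgggttgcgacctg
Jun 3' UTR site further on, chr4:95049978-95050007, minus strand, GRCm38: gaccagaacgatGGACTtttcgttaacatt

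**Figure D2:**
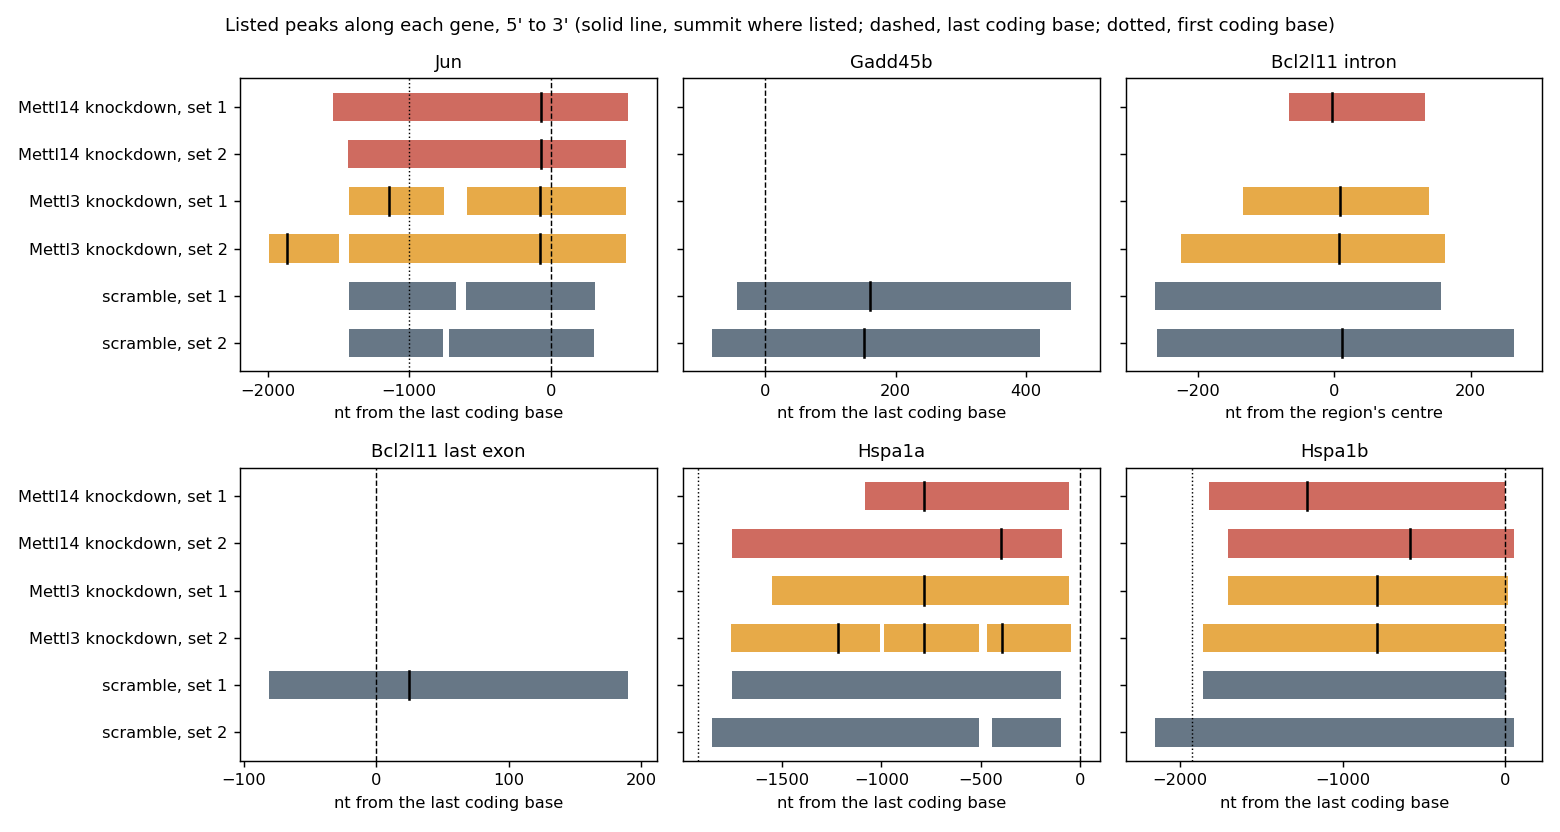
Listed peaks (bars) in each library as distance in nt from the last coding base, or from the centre of the region for the Bcl2l11 intron, with summits as solid lines, the last coding base dashed and the first coding base dotted. Knockdown libraries show long Jun peaks and a gained 5' peak in 1 library, no Gadd45b peak, and narrower Bcl2l11 intron peaks than scramble.

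Gadd45b, whose product binds and activates the stress kinase Map3k4, lost its peak in all 4 tables. No knockdown library listed a peak in the gene. The scramble library of set 1 listed 1 peak (chr10, 80931600 to 80932112, plus strand) with an enrichment of 11.0, 88 tags, a score of 177 and an FDR of 5.66%. The scramble library of set 2 listed a peak at the same place (80931561 to 80932064) with 29.8, 96 tags, a score of 587 and an FDR of 0.700%. The 2 scramble values differed, and stood at the 28.4th and 68.8th percentile of peaks in their libraries. The weakest peaks listed in the knockdown libraries had scores of 107 to 146, so the set 1 scramble peak was near the point where lists end and the set 2 peak was not. A peak that is not listed has no value, and a level below the calling threshold is not shown to be absent.

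The Gadd45b summits lay in the 3' UTR, 161 nt (set 1) and 152 nt (set 2) after the last coding base. Of the peak, 469 of 513 nt in set 1 and 421 of 504 nt in set 2 were stop codon and 3' UTR. The region of 552 nt held 2 copies of GGACT, which 12.3% of windows of that length matched or exceeded, and both lay near its 3' end, the nearer 276 nt and 285 nt from the summits. Both copies lay within the set 1 scramble peak, and the set 2 scramble peak, the stronger, ended before them and held 0. The 30 nt around the set 2 summit are shown with the nearer site, and hold no GGAC, which 10.3% of windows of 30 nt did. They do hold AGACT, and forms of the consensus other than GGACT and GGAC were not counted. The 30 nt of the nearer site end in the other copy of GGACT, which stands in small letters.
Gadd45b summit of the set 2 scramble peak, chr10:80931780-80931809, plus strand, GRCm38: gaggggcggagtcaccgagactgagatgag
Gadd45b 3' UTR site, chr10:80932066-80932095, plus strand, GRCm38: ccgcgggacccgGGACTcgagcccgggact

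Bcl2l11, whose product Bim binds the pro-survival Bcl2 proteins, had the largest log2 decrease of the 4 genes with a shared peak, in each of the 3 tables where its intron peak was shared. Gadd45b, with lost peaks alone, has no log2 change and is not ranked. In the Mettl14 knockdown library of set 1 the enrichment was 30.3 (45 tags over 200 nt), and in that of set 2 no peak was listed. In the Mettl3 knockdown libraries it was 10.1 (47 tags over 273 nt) in set 1 and 15.5 (32 tags over 387 nt) in set 2. In the scramble libraries it was 81.8 (421 nt) in set 1 and 80.6 (77 tags over 523 nt) in set 2. The scramble values lay close together, at the 86.0th and 85.8th percentile of their libraries, and every listed knockdown value lay below them. The listed knockdown values stood at the 69.0th (Mettl14, set 1), 21.7th (Mettl3, set 1) and 58.4th percentile (Mettl3, set 2) of theirs.

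In the authors' deposited tables the Bcl2l11 intron peak had a log2 change of -1.57 with Mettl14 knockdown in set 1. With Mettl3 knockdown it had -3.01 in set 1 and -3.10 in set 2, so scramble was 8.06-fold and 8.55-fold above knockdown. The set 2 value depends on the authors' constant of 0.609, and was -2.38 without it and -2.18 with the table's median set to 0. At or below these values lay 4.65% of the shared peaks of the Mettl14 table of set 1, and 0.221% (set 1) and 1.95% (set 2) of those of the Mettl3 tables. The Mettl3 knockdown peaks had an FDR of 7.22% (set 1) and 3.68% (set 2), against 0.160% for the Mettl14 knockdown peak and 0.860% for the scramble peak of set 2. The knockdown calls were 47.5% to 74.0% as wide as scramble, and all listed summits fell between positions 128135016 and 128135031.

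The region (chr2, 128134756 to 128135282, 527 nt) lies in intron 2 of Bcl2l11-205, 3261 nt after the nearest exon and 11803 nt before the next. None of the 8 transcripts of the gene in the annotation held it in an exon, so no reference sequence of it was at hand and none is shown. Poly(A) RNA can hold introns that are kept or not yet removed, and whether this peak came from such RNA was not tested.

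A second Bcl2l11 peak lay at the stop codon in the last exon (chr2, 128158245 to 128158516), with its summit 25 nt after the last coding base. It was listed in the scramble library of set 1 alone, with an enrichment of 10.4, 50 tags, a score of 187 and an FDR of 4.89%. It was thus not listed in any of the 4 knockdown libraries or in 1 of the 2 scramble libraries, and its score was near the point where lists end. The peak of 272 nt held no GGACT, which 24.8% of windows of that length held. The 30 nt around its summit are shown because they hold GGAC, in capitals, followed by another base.
Bcl2l11 summit in the last exon, chr2:128158336-128158365, plus strand, GRCm38: ctacatgcagccaggatacgtggcGGACat

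Hspa1a and Hspa1b are neighbouring genes of 1 exon on the minus strand of chromosome 17 and encode inducible chaperones that refold damaged proteins. Their coding sequences were 99.4% identical, with 8 mismatches and 3 gap positions over 1926 aligned positions. Of the stretches of 100 bases, the length of a read, 1245 of 1824 in the coding sequence of Hspa1a (68.3%) occurred unchanged in Hspa1b, and none of 714 in its stop codon and 3' UTR did. No source used here says how the authors placed reads that fit both genes, so values in the coding sequence may be split or shared between the genes and are best read as 1 pair.

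The Hspa1a peaks lay wholly in the coding sequence. The Hspa1b peaks lay mostly in it and reached 1 to 53 nt into the stop codon and 3' UTR, and the scramble peak of set 2 also covered the 231 nt of the 5' UTR. The Hspa1b peak had an enrichment of 8.42 (277 tags, set 1) and 8.30 (300 tags, set 2) in Mettl14 knockdown libraries. It had 8.73 (256 tags, set 1) and 8.18 (238 tags, set 2) in Mettl3 knockdown libraries, against 13.2 (set 1) and 13.6 (set 2) in scramble libraries. The 4 knockdown values lay close together, as did the scramble values, and the groups did not overlap. For Hspa1b the authors' deposited tables give log2 changes of -0.79 (Mettl14, set 1), -1.07 (Mettl14, set 2), -0.60 (Mettl3, set 1) and -1.44 (Mettl3, set 2). The set 2 values were smaller without the scaling constants, at -0.71 (Mettl14) and -0.73 (Mettl3), and with the medians set to 0, at -0.48 (Mettl14) and -0.53 (Mettl3). Of the shared peaks of those tables, 12.3% to 23.6% lay at or below these values.

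The Hspa1a peak had an enrichment of 10.5 (150 tags, set 1) and 9.62 (236 tags, set 2) in Mettl14 knockdown libraries. In the Mettl3 knockdown library of set 1 it had 8.93 (199 tags), and in that of set 2 it was listed as 3 peaks of 10.6, 8.42 and 10.0 (56, 68 and 73 tags). In the scramble library of set 1 it had 10.7, and in that of set 2 it was listed as 2 peaks of 18.0 and 24.7. Knockdown and scramble differed little in set 1 and more in set 2, where the scramble values were the highest. For Hspa1a the authors' deposited tables give log2 changes of -0.17 (Mettl14) and -0.26 (Mettl3) in set 1. In set 2 the changes were -1.27 and -1.73 after Mettl14 knockdown and from -2.27 to -1.47 after Mettl3 knockdown. With the medians set to 0 they were -0.67 and -1.13 after Mettl14 knockdown and from -1.36 to -0.56 after Mettl3 knockdown. The scramble peaks covered 1661 nt of the gene in set 1 and 1695 nt in set 2.

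Some summits of the pair fell at matching places. Those of Hspa1a lay 784 to 786 nt before the last coding base in 3 knockdown libraries, and those of Hspa1b 789 and 790 nt before it in both Mettl3 knockdown libraries. A further site lay 1217 nt before the last coding base in Hspa1a (Mettl3 knockdown, set 2) and 1219 nt before it in Hspa1b (Mettl14 knockdown, set 1). Other summits had no counterpart in the pair, at 398 nt (Mettl14 knockdown, set 2) and 394 nt (Mettl3 knockdown, set 2) before the last coding base in Hspa1a and at 585 nt (Mettl14 knockdown, set 2) in Hspa1b. Each gene held 3 copies of GGACT within its region, which 31.1% of windows of the length of the Hspa1a region (1812 nt) and 41.8% of windows of the length of the Hspa1b region (2210 nt) matched or exceeded. The first copy lay 11 nt (Hspa1a) and 12 nt (Hspa1b) from the summits of the further site, and the second 81 to 84 nt from the common summits. Both are shown for each gene with GGACT in capitals, and their 30 bases are the same in the pair.
Hspa1a first site, chr17:34971216-34971245, minus strand, GRCm38: cctgggaggggaGGACTtcgacaaccggct
Hspa1b first site, chr17:34958298-34958327, minus strand, GRCm38: cctgggaggggaGGACTtcgacaaccggct
Hspa1a second site, chr17:34970856-34970885, minus strand, GRCm38: gaagctgctgcaGGACTtcttcaacgggcg
Hspa1b second site, chr17:34957938-34957967, minus strand, GRCm38: gaagctgctgcaGGACTtcttcaacgggcg

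**Figure D3:**
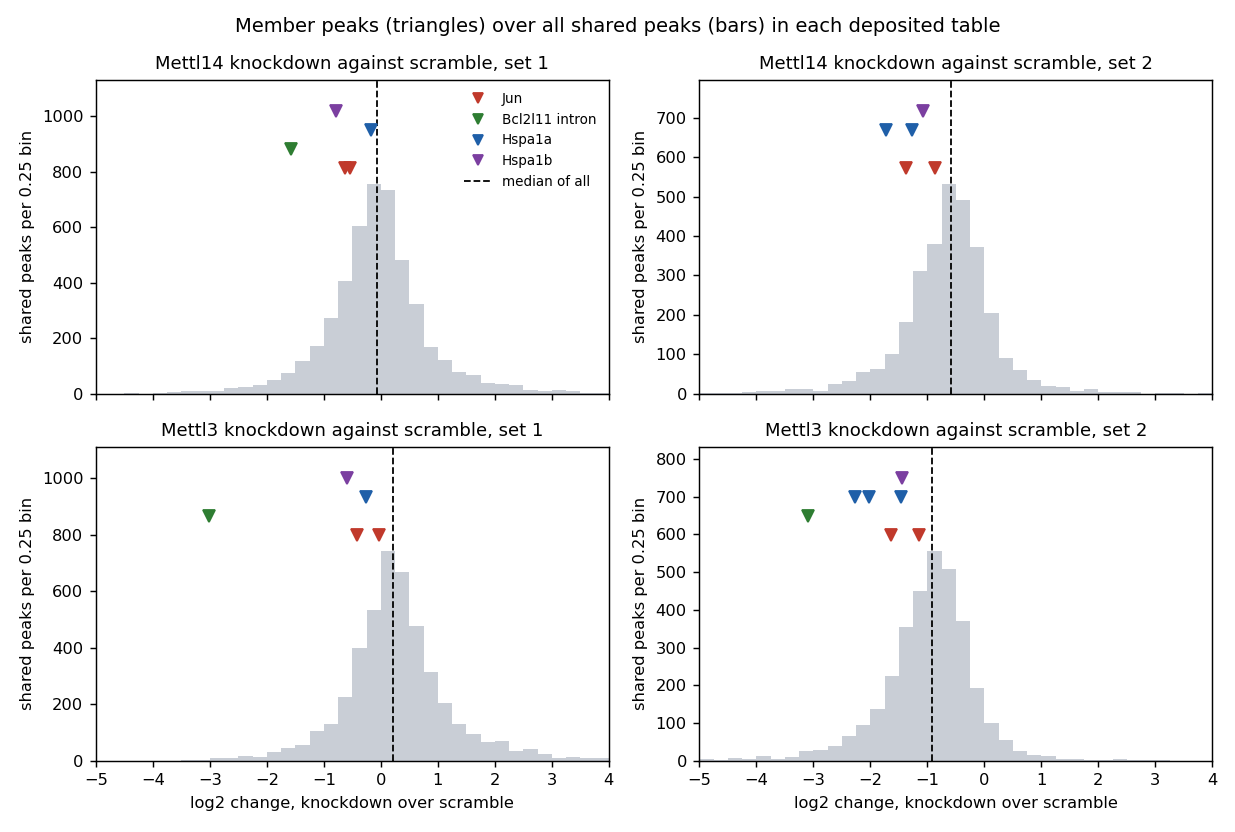
Log2 change of knockdown over scramble for the shared peaks of Jun, the Bcl2l11 intron, Hspa1a and Hspa1b (triangles, placed above the bars for view) over the distribution of all shared peaks (grey bars, peaks per bin of 0.25; axis cut at -5 and 4) in each of the 4 deposited tables. Every triangle lies left of the table's median (dashed, from -0.91 to 0.22), and the Bcl2l11 intron lies furthest left where it is shared.

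Beside the 5 genes, 96 others of the same pathways were followed as 5 lists, of which 46 had a peak in any table. A gene was lower or higher by the same rule as a region, over all its peaks. With Mettl14 knockdown, 10 of the 29 found in both tables (34.5%) had the call lower in each and 2 (6.90%) the call higher, where the shares over all genes were 41.7% lower and 7.60% higher. With Mettl3 knockdown, 6 of the 32 found in both tables (18.8%) had the call lower in each and 7 (21.9%) the call higher, where the shares over all genes were 33.5% lower and 5.82% higher. The shares with Mettl14 knockdown were near those of all genes, and how the lists differed from all genes was not tested. Without the authors' scaling constants 8 were lower and 7 higher with Mettl14 knockdown, and 6 lower and 12 higher with Mettl3 knockdown. Most calls were not kept at an FDR of at most 1%. Those kept were Jund and Bid (lower) and Sesn1 (higher) with Mettl14 knockdown. With Mettl3 knockdown they were Bag3 and Map2k4 (lower) and Hrk and Ier2 (higher). The Mettl3 calls of Hrk and Bcl2 were not kept at a minimum of 20 tags. In the authors' deposited Mettl14 tables the listed genes with a shared peak had a median log2 change of 0.05 (31 genes, set 1) and -0.98 (23 genes, set 2), against -0.07 and -0.61 over all genes. In the Mettl3 tables it was 0.26 (28 genes, set 1) and -0.88 (21 genes, set 2), against 0.21 and -0.90.

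In the list of AP-1 and immediate early factors, Mettl14 knockdown left 3 of 9 genes lower in both sets and none higher, and Mettl3 knockdown 2 of 8 lower and 1 higher. Maff, a small Maf protein that pairs with other leucine zipper factors, had an enrichment of 7.34 (set 1) and 6.63 (set 2) with Mettl14 knockdown and of 9.43 (set 1) with Mettl3 knockdown, with no peak in set 2. Scramble had 10.1 (set 1) and 10.4 (set 2). Mafk, of the same family, had lost its peak in all 4 tables, from scramble enrichments of 18.3 (35 tags) and 19.7 (55 tags). Of the paralogs of Jun, Jund shared the call lower in both Mettl14 tables, a call not kept with the medians set to 0, and Junb was lower in the set 2 tables alone. From the authors' deposited tables, Junb had mean log2 changes of 0.10 (Mettl14, set 1), -0.98 (Mettl14, set 2), 0.01 (Mettl3, set 1) and -1.34 (Mettl3, set 2). From the same deposited tables of the authors, Jund had -0.20 (Mettl14, set 1), -0.36 (Mettl14, set 2), 0.36 (Mettl3, set 1) and -0.58 (Mettl3, set 2). Ier2, an immediate early nuclear protein, was the 1 gene of this list higher in both sets with Mettl3 knockdown, with log2 changes of 0.26 and 0.04 in the deposited tables of the authors.

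In the list of Gadd45 genes and stress kinases, Mettl14 knockdown left 3 of 7 genes lower in both sets and none higher, and Mettl3 knockdown 3 of 10 lower and 3 higher. The 3 genes lower in all 4 tables were Map2k4, which activates the Jun N-terminal kinases, Map2k3, which activates p38, and Dusp1, a phosphatase that acts on both kinases. Map2k4 had an enrichment of 8.43 (set 1) and 8.42 (set 2) with Mettl14 knockdown and 9.62 (set 1) and 10.9 (set 2) with Mettl3 knockdown, against 11.7 (set 1) and 14.6 (set 2) in scramble. Dusp1 had 7.74 (set 1) and 5.65 (set 2) with Mettl14 knockdown, and 6.53 (set 1) and no peak (set 2) with Mettl3 knockdown, against 10.7 and 12.3 in scramble. Map2k3 had 9.05 in the Mettl14 knockdown library of set 1 and no peak in the other 3 knockdown libraries, against 13.6 and 12.8 in scramble. Of the paralogs of Gadd45b, Gadd45g had a shared peak in all 4 tables. From the authors' deposited tables, Gadd45g had mean log2 changes of 0.05 (Mettl14, set 1), -1.23 (Mettl14, set 2), 0.21 (Mettl3, set 1) and -2.04 (Mettl3, set 2). Gadd45a had no scramble peak to lose and was listed with new peaks alone, in both Mettl3 tables, and Mapk14, which encodes p38 alpha, was likewise called higher in both. Ddit4, an inhibitor of mTORC1 induced by stress, was higher in both sets with Mettl3 knockdown, with 4.39 against 3.27 in scramble in set 1 and 4.11 (316 tags) against no scramble peak in set 2.

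In the list of the Bcl2 family and apoptosis, Mettl14 knockdown left 1 of 4 genes lower in both sets and 1 higher, and Mettl3 knockdown none of 5 lower and 2 higher. Bid, which links death receptors to mitochondria, was the lower one, with mean log2 changes of -0.07 (set 1) and -1.02 (set 2) in the authors' deposited tables and a call not kept without the scaling constants. Bcl2l1, which encodes the pro-survival Bcl-xL, was the higher one with Mettl14 knockdown. Hrk, a protein of the same pro-apoptotic class as Bim, was among those higher with Mettl3 knockdown, with an enrichment of 268 (17 tags) against 73.0 in scramble in set 1 and of 160 (15 tags) against no scramble peak in set 2. In set 1 the same peak was lost with Mettl14 knockdown. The other gene higher with Mettl3 knockdown was Bcl2, the founding pro-survival member, with new peaks alone. In the list of heat shock proteins and factors, Mettl14 knockdown left 1 of 3 genes lower in both sets, Mettl3 knockdown 1 of 2, and neither left one higher. The first was Hspa13, a chaperone of the microsomes, with mean log2 changes of -0.50 and -2.60, and the second Bag3, a cochaperone of Hsp70, with -0.36 and -1.73, in the authors' deposited tables. A set 1 peak of Hspa13 had a knockdown enrichment of 31.8 against 30.4 in scramble and a log2 change of -0.08 in the authors' deposited tables, and the call of Hspa13 was not kept without the scaling constants.

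In the list of the p53 axis, Mettl14 knockdown left 2 of 6 genes lower in both sets and 1 higher, and Mettl3 knockdown none of 7 lower and 1 higher. Plk2, a kinase induced by p53, had an enrichment of 5.89 in both Mettl14 knockdown libraries, against 10.3 (set 1) and 10.7 (set 2) in scramble. Phlda3, an inhibitor of Akt induced by p53, had log2 changes of -0.17 and -1.22 in set 1 of the authors' deposited Mettl14 tables and no knockdown peak in set 2. Sesn1, a sestrin, was higher with Mettl14 knockdown, with 42.1 (set 1) and 82.5 (set 2) against 24.4 and 35.7 in scramble. Mdm4, an inhibitor of p53, was higher with Mettl3 knockdown, with 10.6 against 4.26 in scramble in set 1 and 5.47 (104 tags) against no scramble peak in set 2.

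**Figure D4:**
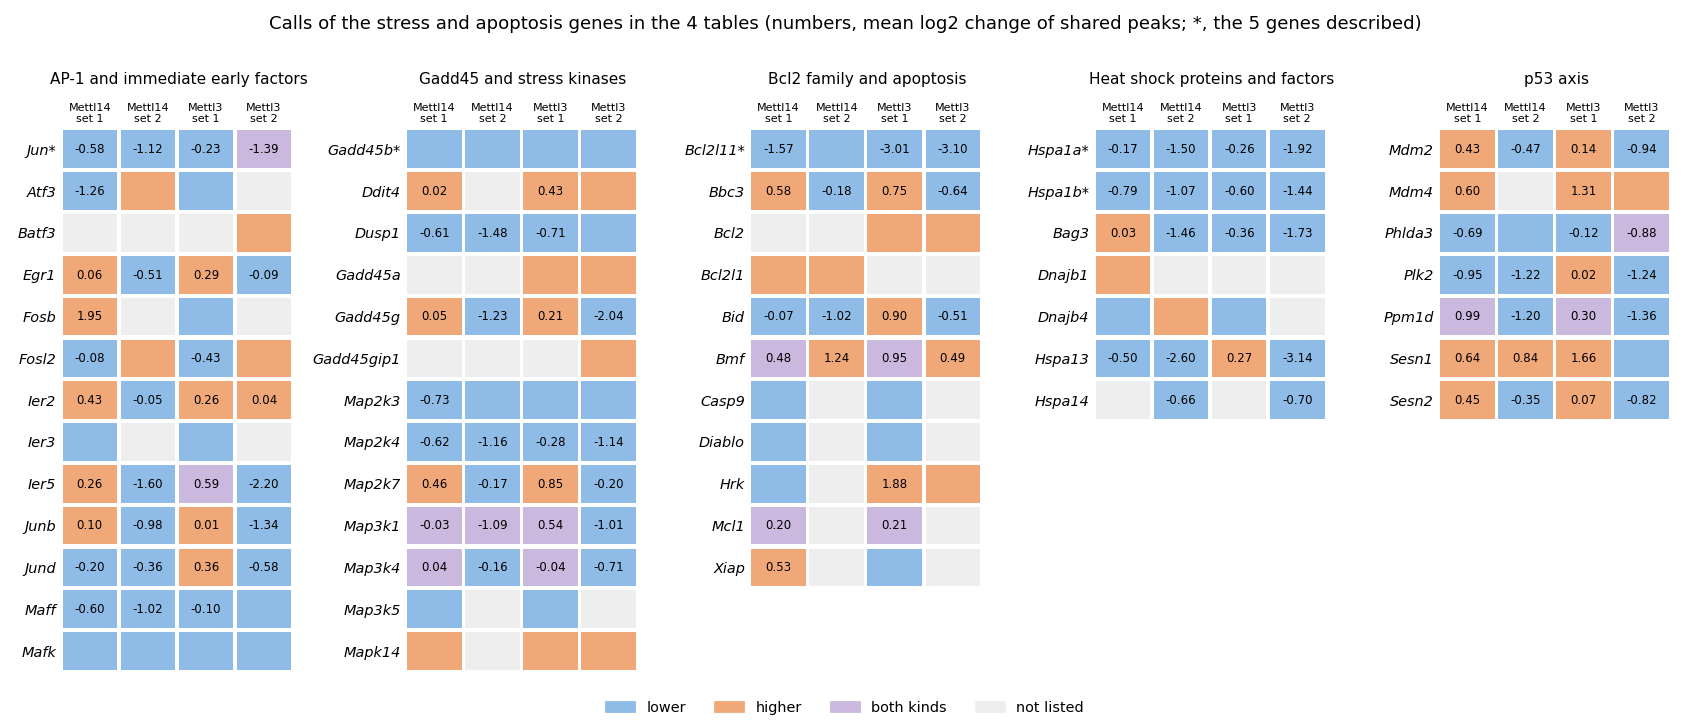
Calls of the 5 genes (starred) and of the 46 others with a peak in any table, by list (panels), with 1 column per deposited table and the mean log2 change of shared peaks as the number in a cell. The calls of the starred genes are lower in every cell except Jun with Mettl3 knockdown in set 2, and those of the other genes are mixed.

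Across the 1950 genes with a shared peak in all 4 tables, the genes nearest to each member by the distance between their 4 mean log2 changes in the authors' deposited tables are named as a description. They were Bcr (distance 0.13), Zfp668 (0.15) and Map3k3 (0.18) for Jun. For Hspa1b they were Cdkn2b (0.13), Fam40a (0.23) and Caskin2 (0.23). For Hspa1a they were Pbxip1 (0.29), Bag3 (0.29) and Usp43 (0.33). Gadd45b and the Bcl2l11 intron were not shared in all 4 tables and have no such neighbours.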

How the data were processed

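RNA of J1 mouse embryonic stem cells was profiled in 12 libraries, 6 of them IP libraries. The other 6, taken without antibody, are not in the tables as separate columns and were not analysed here. The tools named by the labels are Picard 1.74, SAMtools 0.1.18, TopHat2 2.0.6, Bowtie 0.12.7, cutadapt 1.1 and CASAVA 1.8.2, per the submitters' processing notes, with build mm10. The deposited columns are those of a MACS-type caller, with a strand for each peak. That each IP library was called against a control of its own, strand by strand, is inferred from these columns. Each deposited count is of tags in 1 peak and library. Fold enrichment, as deposited, is thus read as a ratio (IP over control). The authors' scaled form multiplies the ratio of knockdown peaks by 1 constant per table (0.906 and 0.777 for Mettl14, 1.00 and 0.609 for Mettl3, set 1 first), of a basis not stated in any source at hand. The deposited score is the caller's, and the deposited FDR of a peak is a percent.

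The authors' signed score of knockdown over scramble was turned into a log2 change, and solving it for the scramble value returned the deposited enrichment where both are listed. Overlapping peaks of 1 gene and strand (at least 1 nt) made a region. No model of condition was fitted, because a table gives each peak over the bounds called in its own library. The code was tested on simulated data. Gene models and sequences came from GENCODE M21 (GRCm38, the same assembly as mm10), which held 6026 of the 6097 listed gene IDs and all 5 members. Identity was taken from a global alignment with Biopython 1.88, under Python 3.11.15 and matplotlib 3.10.9. Motif windows were tiled without overlap over the longest coding transcript of 21901 genes.

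The members and the 5 lists were chosen with earlier results of these data known. Genes named from the lists were those with the same call in all 4 tables and, per knockdown, up to 8 with the same call in both sets by size of change. The 3 nearest genes per member were named where its region was shared in all 4 tables. Junb, Jund, Gadd45a, Gadd45g, Mapk14, Bid, Bcl2 and Bcl2l1 were named after their values were seen. Alternatives were no scaling constant, each table's median at 0, an FDR of at most 1%, at least 20 tags, overlap of 50% of the shorter peak, and each set left out.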

Additional observations from a re-analysis of the deposited data

Results flagged for a closer look

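A signal lay in data that the comparisons above do not use. On the strand opposite Jun, around its stop codon, each table listed a peak that the authors assigned to no gene. Its knockdown peaks held 21 (set 1) and 27 tags (set 2) with Mettl14 knockdown, and 11 (set 1) and 29 tags (set 2) with Mettl3 knockdown. The sense peak of Jun over the same stretch held 600, 553, 362 and 466 tags in the same libraries. The fold enrichment of the opposite-strand peak was 569 (set 1) and 28.4 (set 2) with Mettl14 knockdown and 268 (set 1) and 24.2 (set 2) with Mettl3 knockdown, against 138 (set 1) and 221 (set 2) in scramble. The authors' deposited tables give log2 changes of 1.91 (Mettl14, set 1), -3.32 (Mettl14, set 2), 0.97 (Mettl3, set 1) and -3.90 (Mettl3, set 2). The sets thus went in opposite directions with both knockdowns, and the difference between sets was not tested. Both tables of a set share the scramble library.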

How the results depend on the processing

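The count of member regions lower in both sets stayed at 5 with Mettl14 knockdown under the other settings, except for 4 at an FDR of at most 1%, and ran from 5 to 6 with 1 set left out. With Mettl3 knockdown it stayed at 4, but was 2 at an FDR of at most 1%, 5 with the 50% overlap rule and from 4 to 6 with 1 set left out. Under the 50% overlap rule the gained peak of Jun was a region apart, new with Mettl3 knockdown in set 2, and the rest of Jun was lower. No member region was higher in both sets under any setting. The listed genes were less stable. At an FDR of at most 1%, 2 were lower and 1 higher with Mettl14 knockdown, and 3 lower and 3 higher with Mettl3 knockdown, in part because fewer peaks are left to call. These Mettl3 counts include genes that had no such call in both sets before the filter. Without the scaling constant 7 were higher with Mettl14 and 12 with Mettl3 knockdown. With the median at 0, 8 were higher with Mettl14 knockdown, and 10 lower and 12 higher with Mettl3 knockdown. With 1 set left out, from 18 to 23 were lower and from 6 to 18 higher with Mettl14 knockdown, and from 16 to 23 lower and from 11 to 19 higher with Mettl3 knockdown, since a single table then decides the call. No paired analysis was possible because no model was fitted and the columns carry no replicate number of the labels, and each log2 change is already a comparison within 1 set. Total depth is unknown, and a peak below the calling threshold has no value.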
